A study of Mus musculus with 6 samples.

Results

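The genes described here encode the hepatic methionine cycle, the transsulfuration steps that turn homocysteine into cysteine, and enzymes that compete for the same methyl groups and sulfur. The set was Mat1a, Gnmt, Ahcy, Bhmt, Cbs, Cth, Cdo1, Csad, Gamt and Pemt, and its members were all array probe sets annotated to exactly 1 of these symbols. All 10 genes were found, of 18193 named genes on the array, on 11 of its 45037 probe sets that are not controls. Each of the 11 was bright enough to be tested, among 22519 tested probe sets that stand for 11102 named genes.

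Liver RNA of Nrf2-deficient mice (genotype Nrf2 ko) was compared with that of wild-type mice (Nrf2 wt) on 6 one-colour Affymetrix arrays, 3 per genotype. Both groups were 10 weeks old and of the C57B/SV129 strain, and no treatment, surgery or sex is named for either. RNA of 3 animals was pooled for each array, so an error given below is a spread between pools and the spread between animals is hidden. Pools are labelled as biological replicates, with nothing on whether any animal entered more than 1 of them, so p-values measure only the spread between these pools. The deleted part of the gene is not named, and neither is a promoter or Cre that would limit the deficiency to 1 cell type. In bulk liver RNA, fewer cells of a type and less RNA per cell cannot be told apart.

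Methionine adenosyltransferase makes S-adenosylmethionine, the methyl donor of the cell. Methyltransferases use it and leave S-adenosylhomocysteine, which is hydrolysed to homocysteine. Homocysteine is either methylated back to methionine, in liver largely with betaine, or is committed by cystathionine beta-synthase and cystathionine gamma-lyase to cysteine. Cysteine is then used for glutathione and protein, or is oxidised toward taurine and sulfate. Nrf2 (gene Nfe2l2) is a transcription factor known to drive genes of glutathione synthesis, for which cysteine is the limiting amino acid.

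Deposited probe set intensities were taken as log2 values after adding a pseudocount of 5.26 and were normalized between arrays. Differences are knockout minus wild type on that scale, tested with limma and adjusted over all tested probe sets by the Benjamini-Hochberg method, with a threshold of 0.05. Arrays differed in brightness, with trimmed means of 92.0 to 131 before normalization. The brighter Nfe2l2 probe set was at deposited intensities of 5.74 to 7.40 with the knockout label and of 598 to 696 with the wild-type label. A dimmer one was at 24.4 to 27.9 and 20.2 to 34.4 (log2 difference 0.14 ± 0.22, SE, n = 3 per genotype; limma adjusted p = 0.925), and the place of either relative to the deletion was not analysed here. The array's actin control gave a 3′ to 5′ intensity ratio of 1.94 to 2.01 in the knockout and 1.77 to 1.94 in the wild type. These did not overlap, by a margin of 1.942 against 1.936. The Gapdh control gave 0.725 to 0.793 in the knockout and 0.756 to 0.767 in the wild type, with overlap. The part of these ratios in the differences below was not tested. Hepatocyte markers (9 of 10 with a probe set, all bright enough to be tested) had mean log2 levels of 13.18 to 13.24 in the knockout and 13.15 to 13.23 in the wild type. Several were near the highest intensity on any array, 16555, where normalization between arrays leaves little room for a difference. Apoa1, for example, had a normalized value of 13.99 in each knockout pool and in wild-type pool 1.

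None of the 10 genes passed the adjusted threshold, which 0.144% of the tested genes passed (16 of 11102). The enzymes at the entry to the cycle and in transsulfuration, Mat1a, Cbs and Cth, stood 1.28-fold to 1.39-fold higher in the knockout pools, and these were the 3 members with an unadjusted limma p under 0.05. That level was reached by 8.23% of all tested genes, and by 4.08% in the higher direction. For the same 3 genes all knockout pools lay above all wild-type pools on the normalized scale, which held for 7.39% of tested genes in this direction, 6.54% in the other and 13.9% in either. Of the 10 genes, 6 had a higher and 4 a lower mean in the knockout, or 7 and 3 with median centring, beside 51.4% higher among all tested genes. Their median log2 difference was 0.061, against 0.0063 for all tested genes. The members and lists were chosen with earlier results of these data known, so these counts are a description.

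**Figure D1:**
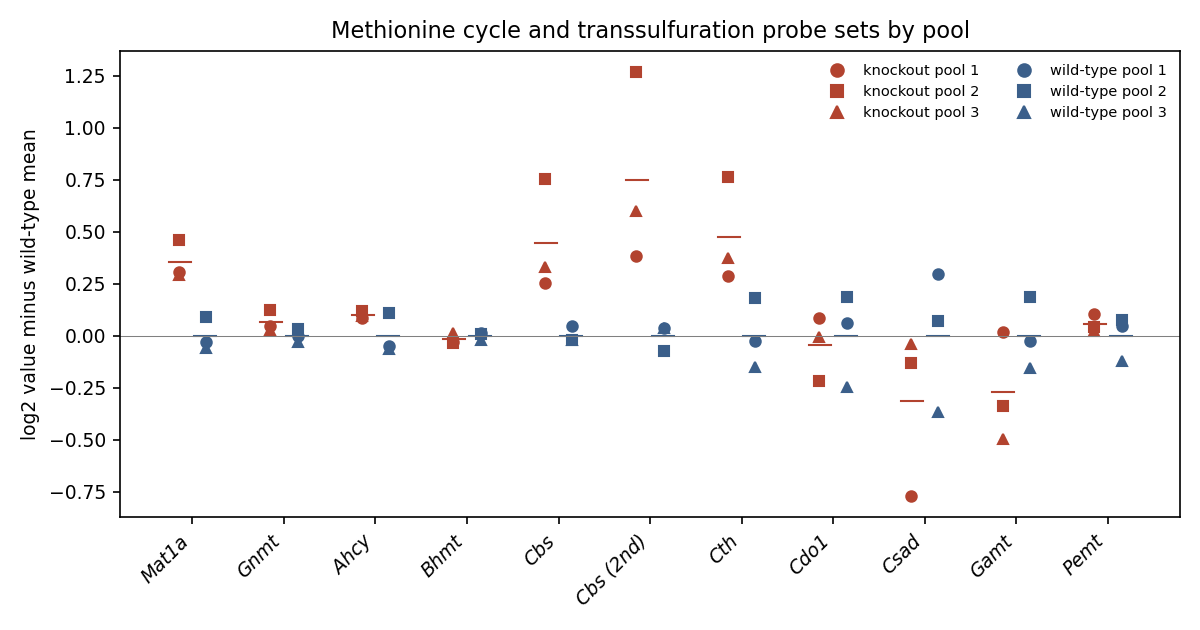
Normalized log2 value of each of the 11 probe sets in each pool, minus the mean of the 3 wild-type pools; points are pools (red knockout, blue wild type, shape the pool number), short lines the group means, and "2nd" the dimmer Cbs probe set. Knockout points of Mat1a, Cbs and Cth sit above the wild-type points, with knockout pool 2 the highest of all in each, and the other genes overlap between genotypes.

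Mat1a, the liver form of methionine adenosyltransferase and the source of S-adenosylmethionine in hepatocytes, was read by 1 probe set (1423147_at). Its deposited intensities were 5659, 6870 and 6655 in knockout pools 1 to 3 and 5597, 5042 and 5699 in wild-type pools 1 to 3. These overlap between genotypes by knockout pool 1 and wild-type pool 3. After normalization the log2 values were 12.65, 12.80 and 12.63 in the knockout and 12.31, 12.43 and 12.28 in the wild type. The groups did not overlap on this scale, by a margin of 12.63 against 12.43. The log2 difference was 0.35 ± 0.08 (SE, n = 3 per genotype), 1.28-fold, with a 95% interval of 1.13-fold to 1.44-fold and a limma adjusted p of 0.252, the lowest among the members. With each pool left out in turn the difference ran from 0.30 to 0.39.

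Gnmt encodes glycine N-methyltransferase, the abundant hepatic enzyme that disposes of excess S-adenosylmethionine by methylating glycine. Its normalized log2 values were 13.14, 13.21 and 13.12 in the knockout pools, against 13.09, 13.12 and 13.06 in the wild-type pools. The genotypes overlapped within a narrow band. Between genotypes the log2 difference was 0.065 ± 0.060 (SE, n = 3 per genotype; limma adjusted p = 0.842), with a 95% interval of -0.072 to 0.20, or 0.952-fold to 1.15-fold. Without knockout pool 2 it was 0.037.

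Gamt and Pemt compete for the same methyl donor. Gamt, guanidinoacetate methyltransferase, forms creatine, and its normalized log2 values were 10.05, 9.70 and 9.53 in the knockout pools, against 10.00, 10.22 and 9.87 in the wild-type pools. Knockout pools 2 and 3 lay below every wild-type pool, while knockout pool 1 lay among them. The log2 difference was -0.27 ± 0.15 (SE, n = 3 per genotype; limma adjusted p = 0.715), and leaving out single pools gave -0.42 (knockout pool 1), -0.16 (knockout pool 3) and -0.18 (wild-type pool 2). Pemt, which methylates phosphatidylethanolamine to phosphatidylcholine, had normalized log2 values of 10.72, 10.66 and 10.64 in the knockout pools, against 10.67, 10.69 and 10.50 in the wild-type pools. The groups overlapped, with a log2 difference of 0.056 ± 0.084 (adjusted p = 0.919) and a 95% interval of -0.13 to 0.25. Pemt reached -0.0065 and 0.094 when wild-type pool 3 or 2 was left out, and 0.033 when knockout pool 1 was.

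Ahcy, S-adenosylhomocysteine hydrolase, removes the product that inhibits methyltransferases. Its normalized log2 values were 12.94, 12.98 and 12.96 in the knockout pools, against 12.81, 12.97 and 12.80 in the wild-type pools. Wild-type pool 2 alone reached the knockout range. This was a log2 difference of 0.098 ± 0.068 (SE, n = 3 per genotype; limma adjusted p = 0.779), with an interval of -0.056 to 0.25, and 0.15 without wild-type pool 2. Bhmt, betaine-homocysteine methyltransferase, regenerates methionine in liver. Deposited Bhmt intensities were 11853, 12099 and 12740 in the knockout and 13180, 12975 and 12609 in the wild type, near the highest intensity on any array, 16555. The normalized log2 values lay between 13.59 and 13.64 on all 6 arrays, and the difference of -0.017 ± 0.054 (adjusted p = 0.966) turned to 0.026 with median centring. Its 95% interval was -0.14 to 0.11, and with single pools left out it ran from -0.031 to -0.0077.

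Cbs, cystathionine beta-synthase, joins homocysteine to serine and commits its sulfur to cysteine, and it was the single member with more than 1 probe set. At the brighter one (1423844_s_at) the deposited intensities were 1905, 3065 and 2597 in the knockout pools, against 2256, 1586 and 2157 in the wild-type pools. Knockout pool 1 was thus within the wild-type range before normalization. On the normalized log2 scale the values were 11.13, 11.63 and 11.21 against 10.92, 10.86 and 10.86. The wild-type pools lay close together, every knockout pool was above them, and knockout pool 2 stood highest. The log2 difference was 0.45 ± 0.13 (SE, n = 3 per genotype), 1.36-fold with a 95% interval of 1.12-fold to 1.66-fold and a limma adjusted p of 0.446. Without knockout pool 2 it was 0.29, the lowest value with any pool left out.

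The dimmer Cbs probe set (1425623_a_at) ordered the genotypes in the same way, with a larger difference. Its normalized log2 values were 9.79, 10.67 and 10.00 in the knockout pools, against 9.44, 9.33 and 9.44 in the wild-type pools. Again no knockout pool reached down to the wild-type range and knockout pool 2 was highest. This was a log2 difference of 0.75 ± 0.20 (SE, n = 3 per genotype), 1.68-fold with an interval of 1.23-fold to 2.30-fold (limma adjusted p = 0.420). Both probe sets were read from the same 6 RNA pools, so the second is no further replicate.

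Cth, cystathionine gamma-lyase, cleaves cystathionine to release cysteine and completes transsulfuration. Deposited intensities were 5722, 8781 and 7207 in the knockout pools, against 5839, 5567 and 5565 in the wild-type pools. Knockout pool 1 was thus below wild-type pool 1 before normalization. Normalized log2 values were 12.68, 13.15 and 12.76 in the knockout and 12.36, 12.57 and 12.24 in the wild type. The lowest knockout pool was above the highest wild-type pool by 12.68 against 12.57, and knockout pool 2 was again the highest of the 6. Knockout minus wild type, the log2 difference was 0.47 ± 0.13 (SE, n = 3 per genotype), 1.39-fold with an interval of 1.13-fold to 1.71-fold and a limma adjusted p of 0.440. Without knockout pool 2 it was 0.32.

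**Figure D2:**
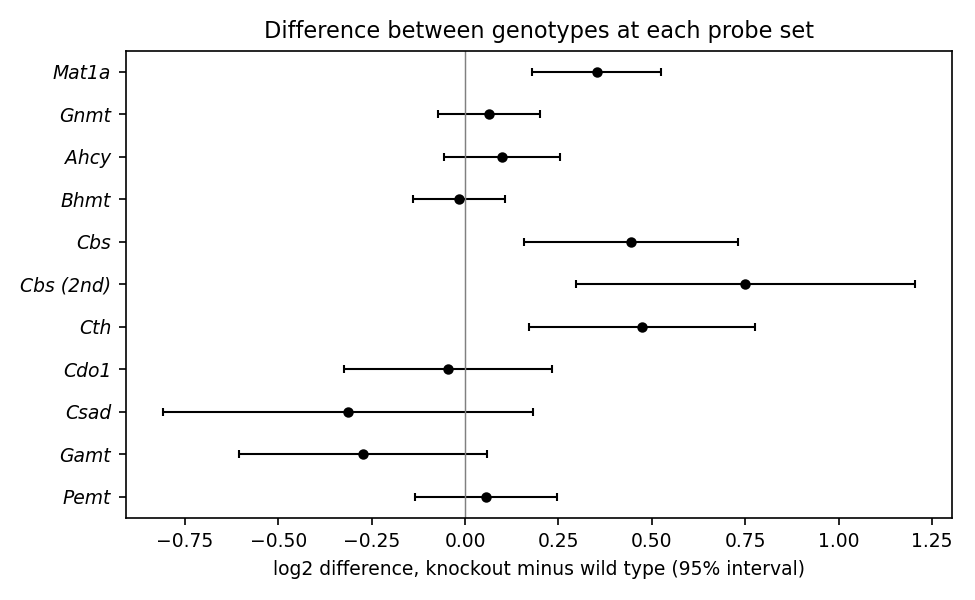
Log2 difference, knockout minus wild type, at each of the 11 probe sets, with its 95% interval from the limma fit (n = 3 pools per genotype). The intervals of Mat1a, Cth and both Cbs probe sets lie above 0 before adjustment for multiple testing, and those of the other genes include 0; the Bhmt point is at -0.017 and turned to 0.026 under median centring.

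Promoter sequence was searched for the letters of the antioxidant and amino acid response elements. The GC, CCAAT and TATA boxes, which are general promoter letters, were searched as well. RefSeq windows (GRCm38.p6) were matched by symbol for 7 of the 10 genes, Ahcy, Gamt, Pemt, Bhmt, Csad, Cbs and Gnmt, in 9 windows. The 250 bases before each start were searched on both strands. Mat1a and Cth had no window. The member search left out the chromosome of Cdo1, while the shares over all windows kept it. The core letters of the antioxidant response element bound by Nrf2, TGACNNNGC, were in none of the 7 genes' windows and in 10.2% of all 32851 windows. The amino acid response letters TGATGNAA were also in none, against 3.45% of all windows, and so were the TATA box letters TATAAA, against 12.4%. The GC box GGGCGG was found for 4 of the 7 genes (32.7% of all windows) and the CCAAT box CCAAT for 6 (33.8%). These counts are by gene, with 9 windows for the 7 genes, and so are not directly comparable with shares of windows. The windows of Cbs and Gamt are shown, as those of the member with a window that stood highest in the knockout and of the lower member with the smallest p. Both lie on the minus strand and are written 5′ to 3′ up to the base before the start. Capitals mark matches to these letters on either strand, here the GC and CCAAT boxes, which share no base with each other.
Cbs, chr17:31637206-31637455: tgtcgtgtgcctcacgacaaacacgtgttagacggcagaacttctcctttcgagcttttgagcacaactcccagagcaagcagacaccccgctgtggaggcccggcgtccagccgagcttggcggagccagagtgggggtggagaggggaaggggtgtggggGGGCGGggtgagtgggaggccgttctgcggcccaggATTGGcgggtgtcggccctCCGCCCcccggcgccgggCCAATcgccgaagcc
Gamt, chr10:80261013-80261262: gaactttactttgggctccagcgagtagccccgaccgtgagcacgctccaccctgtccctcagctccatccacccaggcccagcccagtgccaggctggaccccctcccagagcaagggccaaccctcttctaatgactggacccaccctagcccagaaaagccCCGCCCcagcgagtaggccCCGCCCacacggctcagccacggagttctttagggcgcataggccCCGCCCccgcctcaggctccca
The Cbs window held 2 GC boxes, 2 CCAAT boxes and 21 CG dinucleotides, against a median of 6 in all windows. The Gamt window held 3 GC boxes, no CCAAT box and 12 CG dinucleotides. A match is a description of these letters only.

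Downstream of cysteine, neither enzyme of the taurine branch passed the test, and the genotypes overlapped at both. Cdo1, cysteine dioxygenase, takes cysteine into the oxidative branch, and its normalized log2 values were 12.57, 12.27 and 12.48 in the knockout pools, against 12.55, 12.68 and 12.24 in the wild-type pools. The wild-type pools spanned the whole knockout range. The log2 difference was -0.046 ± 0.12 (SE, n = 3 per genotype; limma adjusted p = 0.959), and it turned to 0.038 without knockout pool 2 and to 0.044 without wild-type pool 2. Csad, cysteine sulfinate decarboxylase, makes hypotaurine, and its deposited intensities were 879, 1513 and 1959 in the knockout and 2553, 1630 and 1632 in the wild type. Its normalized log2 values were 10.04, 10.68 and 10.78 against 11.11, 10.89 and 10.45. Knockout pool 1 was lowest, but wild-type pool 3 lay below the other knockout pools. This was a log2 difference of -0.31 ± 0.22 (adjusted p = 0.780), with a wide interval of -0.81 to 0.18. Most of it rested on knockout pool 1, without which it was -0.082. It was -0.16 without wild-type pool 1 and -0.50 without wild-type pool 3.

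**Figure D3:**
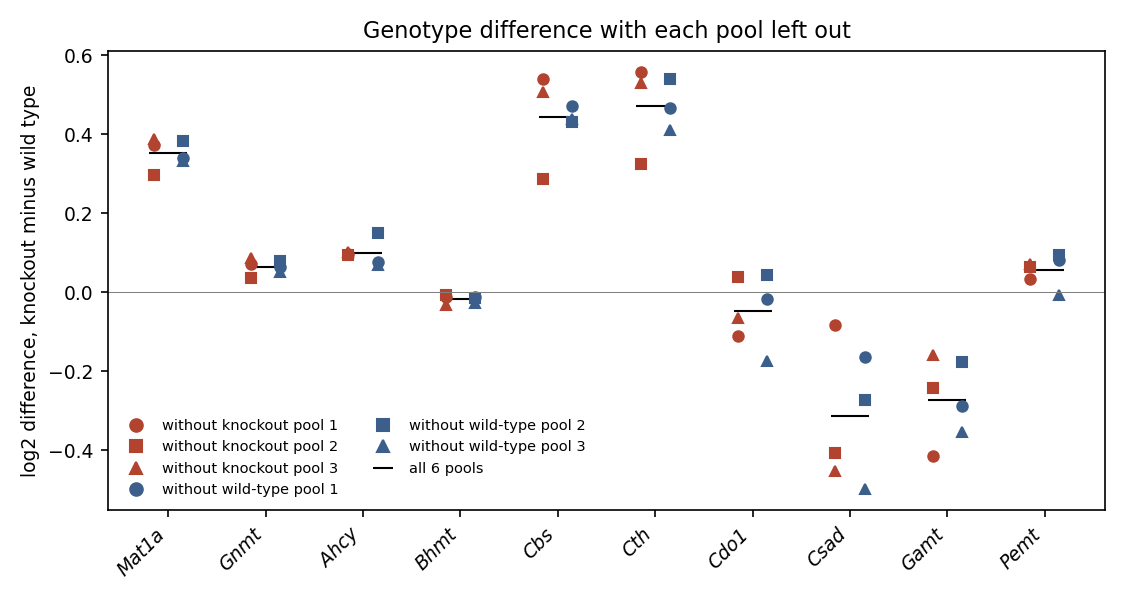
Log2 difference, knockout minus wild type, of each member at its brightest probe set with all 6 pools (black bar) and with each pool left out in turn (red, a knockout pool; blue, a wild-type pool; shape the pool number). Mat1a, Cbs and Cth stay between 0.29 and 0.56, while Cdo1 and Pemt change sign and Csad runs from -0.50 to -0.082; Bhmt, below 0 here, turned to 0.026 under median centring.

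Knockout pool 2 had the highest normalized value of all 6 pools for Mat1a, Gnmt, Ahcy, Cth and both Cbs probe sets. It also stood apart in other genes on the same arrays. The mean log2 level of 9 pericentral hepatocyte markers, such as Glul and Cyp2e1, was 9.72 in this pool. It was 10.05 in each of the other knockout pools and 10.08 to 10.36 in the wild type. Of these markers, 8 of the 9 were lower in the knockout, and each of the 9 alone overlapped between genotypes. Among all tested genes 51.4% were higher in the knockout. Of the 10 male-biased liver genes with a probe set, 9 were lower in the knockout, with a mean of 11.23 in pool 2, 11.58 and 11.68 in the other knockout pools and 11.86 to 11.98 in the wild type. Female-biased genes, of which 3 of 6 were bright enough to be tested, ran from 4.65 to 5.21 in the knockout, again highest in pool 2, and from 3.89 to 4.29 in the wild type. All 9 stellate cell and fibroblast markers had a higher mean in the knockout, with list means of 7.51 to 7.82 against 7.20 to 7.43. The list means of the hepatocyte and the 7 periportal markers overlapped between genotypes. Of the periportal markers, 5 were higher and 2 lower in the knockout, and Cps1 (0.07) and Hsd17b13 (0.22) alone lay higher without overlap. Pancreas markers, of which 3 of 6 were bright enough, had means of 4.89 to 4.93 against 4.50 to 4.86. Single genes weighed on these means: Slc1a2 (log2 difference -0.83), Cyp17a1 (2.49), Des (1.00) and Cela1 (0.50). Without each of these, the means of its list overlap between genotypes, for the pericentral, female-biased, stellate cell and pancreas lists. The male-biased means stay apart without Cyp7b1 (-1.11). The part of these list differences in the values of Mat1a, Cbs and Cth was not tested. Without knockout pool 2 the log2 differences of these 3 genes were 0.30, 0.29 and 0.32. The other knockout pools still lay outside the wild-type range for the pericentral, male-biased, female-biased, stellate cell and pancreas lists. The pericentral margin was 10.05 against 10.08. For a list that holds Slc1a2, Cyp17a1, Des or Cela1, this no longer holds once that gene is left out.

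**Figure D4:**
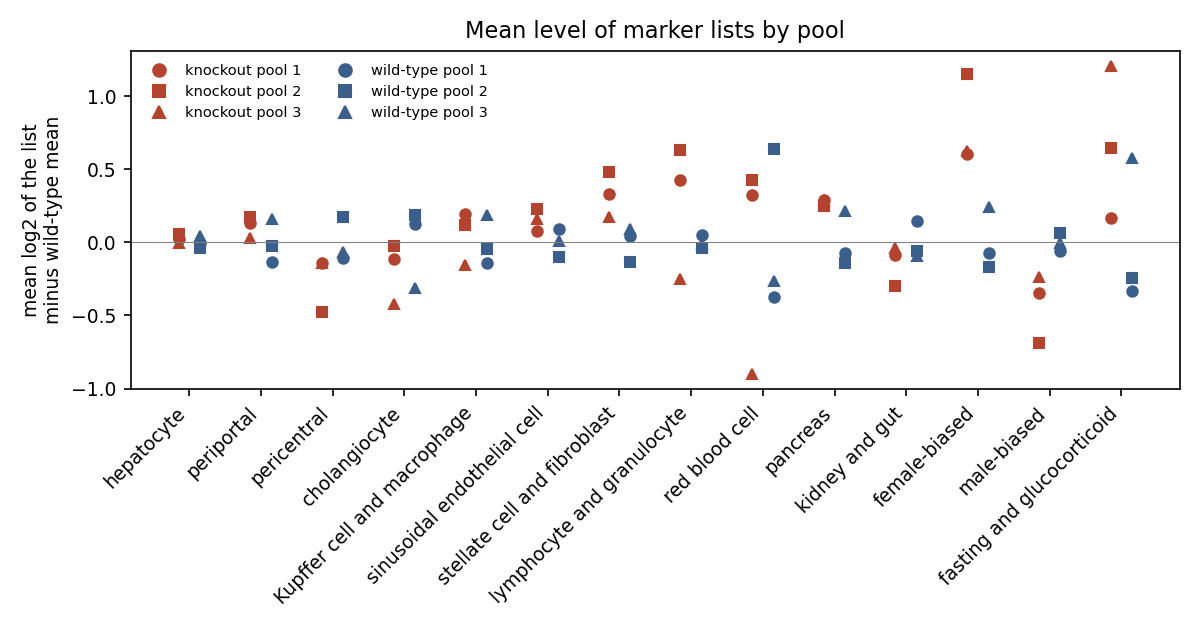
Mean normalized log2 level of each marker list in each pool, minus the mean of the 3 wild-type pools (red knockout, blue wild type, shape the pool number). Knockout points lie wholly below the wild-type points for pericentral and male-biased genes and wholly above them for stellate cell, pancreas and female-biased genes. The other lists overlap. Without Slc1a2, Des, Cela1 or Cyp17a1, the list that holds it (pericentral, stellate cell, pancreas or female-biased) overlaps as well.

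List means of kidney and gut, cholangiocyte, lymphocyte and granulocyte, red blood cell, Kupffer cell and sinusoidal endothelial markers overlapped between the genotypes. Few were bright enough to be tested among cholangiocyte (2 of 6), kidney and gut (2 of 6) and red blood cell markers (1 of 3). Of the lymphocyte and granulocyte markers, 5 of 9 were bright enough. Mean levels of fasting and glucocorticoid responsive genes also overlapped, at 8.13 to 9.17 in the knockout and 7.63 to 8.54 in the wild type. Of these 14 genes, 9 were higher and 5 lower in the knockout. Cyp4a14 (log2 difference 3.67) and Mt1 (2.67) lay higher without overlap, as did 7.39% of all tested genes. Their limma adjusted p with all probe sets kept was 0.491 and 0.487.

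The wider pathway was described from 7 further lists. Of their 92 tested genes, 47 were higher and 45 lower in the knockout, with a median log2 difference of 0.0046, and 0 passed by limma, against 0.144% of all tested genes. At an unadjusted p under 0.05 there were 10 higher (9 without Bche, which does not belong to the pathway) and 5 lower, where 4.08% and 4.15% of all tested genes lay.

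**Figure D5:**
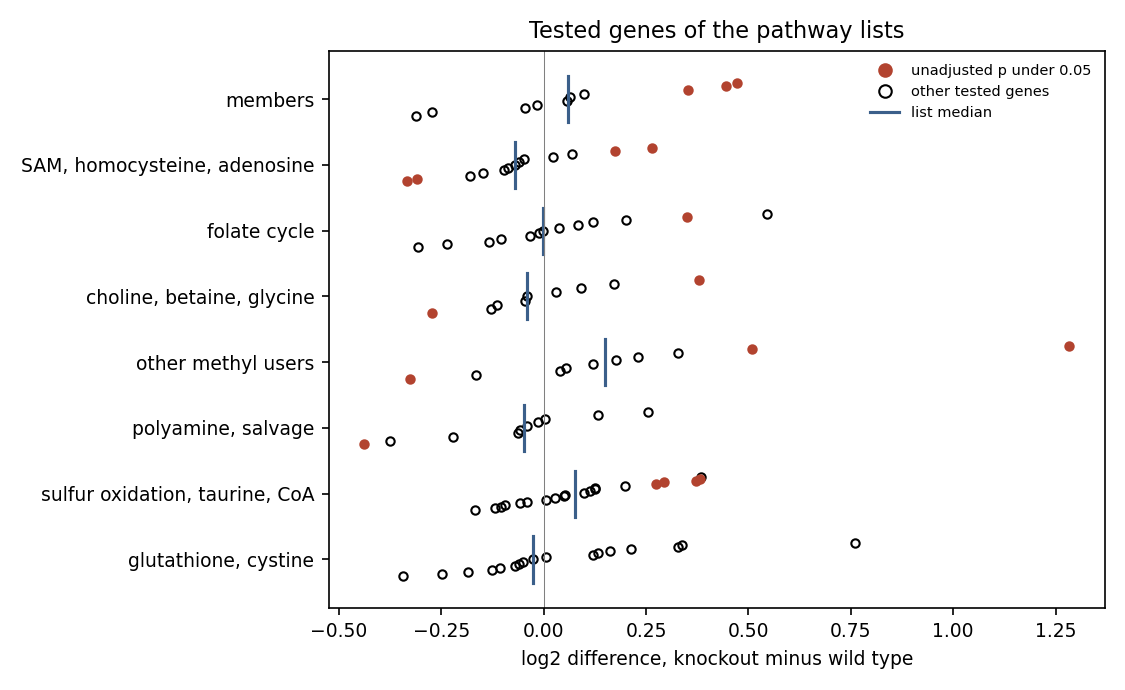
Log2 difference, knockout minus wild type, of each tested gene in the member list and the 7 further lists (n = 3 pools per genotype); filled points have an unadjusted limma p under 0.05 and bars are list medians. The filled points of the sulfur oxidation list are Suox, Sqor, Papss2 and Bche, the last no gene of sulfur metabolism, and Nnmt lies farthest right at 1.28.

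The list of genes that oxidise sulfur, make taurine or coenzyme A and handle sulfate was higher for 14 of 20 members, with a median of 0.076 log2. It includes Bche, butyrylcholinesterase, which has none of these functions, and without it 13 of 19 were higher, with a median of 0.053. Those with an unadjusted p under 0.05 were Suox, Sqor, Papss2 and Bche, all higher. Bche, named after its values were seen, was at 0.38 ± 0.15 (SE, n = 3 per genotype; limma adjusted p = 0.608). Suox, sulfite oxidase, had normalized log2 values of 10.47, 10.65 and 10.38 in the knockout pools, against 10.19, 10.20 and 9.99 in the wild-type pools. The groups did not overlap, and the difference was 0.37 ± 0.10 (SE, n = 3 per genotype; limma adjusted p = 0.436). Sqor, which oxidises hydrogen sulfide in mitochondria, was at 0.28 ± 0.09 (adjusted p = 0.547). Papss2, which makes the sulfate donor for sulfation, was at 0.29 ± 0.10 (adjusted p = 0.568), or 0.081 as the mean of its probe sets. Gadl1 was too dim to be tested.

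Glutathione synthesis, breakdown and cystine uptake genes, the main competing use of cysteine, were divided, with 8 of 17 higher, 9 lower and 0 at an unadjusted p under 0.05. Gclc and Gclm, the subunits of glutamate-cysteine ligase, were at -0.18 ± 0.12 (SE, n = 3 per genotype; limma adjusted p = 0.765) and -0.13 ± 0.11 (adjusted p = 0.825). Leaving out wild-type pool 1 gave -0.096 for Gclc and -0.030 for Gclm, leaving out knockout pool 2 gave -0.30 and -0.065, and leaving out wild-type pool 3 gave -0.22 for Gclm. Gss, glutathione synthetase, was at -0.059 ± 0.17 and turned to 0.099 or 0.067 when knockout pool 1 or wild-type pool 3 was left out. Slc3a1, a subunit of the cystine transporter, had the smallest p of the list, with normalized log2 values of 9.13, 9.97 and 8.56 in the knockout and 8.18, 8.26 and 8.94 in the wild type. Its groups overlapped (0.76 ± 0.34, adjusted p = 0.656), and without knockout pool 2 the difference was 0.38. The neutral amino acid carrier gene Slc1a4 was at 0.33 ± 0.16 and glutathione reductase, Gsr, at -0.25 ± 0.13, or -0.14 without wild-type pool 2. Slc7a11, the cystine antiporter, was too dim to be tested, with deposited intensities of 1.33 to 14.0 over all 6 pools.

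Other users of methyl groups were higher for 8 of 10 tested genes, with a list median of 0.15 log2. Inmt, indolethylamine N-methyltransferase, had normalized log2 values of 12.08, 12.25 and 12.22 in the knockout pools, against 11.76, 11.83 and 11.43 in the wild-type pools. Without overlap between the groups, it was at 0.51 ± 0.11 (SE, n = 3 per genotype), 1.42-fold, and its limma adjusted p of 0.252 was the lowest of the 7 lists. Nnmt, which methylates nicotinamide, was at 1.28 ± 0.51 (adjusted p = 0.611), with normalized log2 values of 9.77, 11.80 and 10.24 in the knockout and 8.97, 10.13 and 8.86 in the wild type. Wild-type pool 2 exceeded knockout pool 1, and without knockout pool 2 the difference was 0.69. A fit that paired pools of the same number (the replicate block) kept Nnmt at 1.28. Its SE was then 0.16 and its limma adjusted p 0.053, still above the threshold. Hnmt, which methylates histamine, was at -0.33 ± 0.10 (adjusted p = 0.496) with no overlap. Gatm, which makes the substrate of Gamt, was at 0.12 ± 0.13, and at 0.21, 0.071 and 0.079 without wild-type pools 1, 2 and 3.

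Genes of S-adenosylmethionine synthesis, homocysteine and adenosine handling beyond the members were higher for 4 and lower for 9 of 13. Msra, a methionine sulfoxide reductase, was at -0.31 ± 0.09 (SE, n = 3 per genotype; limma adjusted p = 0.496), and Msrb1, a reductase for the other sulfoxide form, at 0.17 ± 0.07 (adjusted p = 0.608), both without overlap. Ahcyl2, a relative of Ahcy, was at -0.33 ± 0.13, or -0.14 as the mean of its probe sets. Bhmt2, which methylates homocysteine from S-methylmethionine, was at -0.060 ± 0.095, and Mtr, the folate-dependent methionine synthase, was at -0.15 ± 0.22. Both turned with the mean of probe sets, to 0.024 and 0.036, and with single pools left out they ran from -0.15 to 0.023 and from -0.25 to 0.027, each highest without wild-type pool 1.

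The folate cycle had 6 of 13 tested genes higher and 7 lower, and choline, betaine and glycine breakdown 4 of 9 higher and 5 lower. Mthfd1, the trifunctional folate enzyme, was at 0.35 ± 0.12 (SE, n = 3 per genotype; limma adjusted p = 0.569), or 0.16 as the mean of its probe sets. Ftcd, which feeds histidine carbon into folate, was at 0.20 ± 0.10 and the mitochondrial Mthfd1l at 0.55 ± 0.33. Mthfd1l was at 0.15 without knockout pool 2 and 0.85 without knockout pool 3, and Ftcd at 0.13 without knockout pool 2 or wild-type pool 3. Gldc, the decarboxylase of the glycine cleavage system, had no overlap, at 0.38 ± 0.10 (adjusted p = 0.427). Glyat, which conjugates glycine to acyl groups, was likewise separated in the other direction, at -0.27 ± 0.08 (adjusted p = 0.440), and Dld, a shared subunit of that system, was at 0.17 ± 0.09.

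Polyamine synthesis and methionine salvage genes were higher for 3 of 10 and lower for 7. Srm, spermidine synthase, whose substrate derives from S-adenosylmethionine, had normalized log2 values of 8.35, 8.01 and 8.40 in the knockout pools, against 8.62, 8.62 and 8.83 in the wild-type pools. Every knockout pool lay below every wild-type pool, with a difference of -0.44 ± 0.13 (SE, n = 3 per genotype; limma adjusted p = 0.496). Sat1, which acetylates polyamines, was at 0.26 ± 0.14, or 0.082 without knockout pool 2, and the salvage enzyme gene Adi1 was at -0.37 ± 0.23, or -0.086 without knockout pool 3 and -0.58 without knockout pool 1.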

How the data were processed

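Each array has 1 column of deposited intensity values, linear and per probe set. The submitters' processing notes name GCOS 1.4, while signal algorithm, scaling target and build were not given in the sources used here. Detection calls were not used. The platform annotation gave 1 gene for 34945 probe sets, several for 932 and none for 9160, and 34754 symbols were updated by Entrez identifier.

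To each intensity 5.26 was added, the 25th percentile over all arrays, before log2 and quantile normalization, which understates changes of dim probe sets. Left out were 64 array controls and probe sets with a mean under the median. The genotypes were compared, unpaired, with limma 3.58.1 in R 4.3.3 (lmFit, eBayes with an intensity trend, two-sided, threshold 0.05). A gene took its brightest tested probe set. With 3 arrays per genotype, the number of arrays limits the precision.

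Members and lists were chosen with earlier results of these data known. Named genes were the members, Nfe2l2, any listed gene past the threshold, the 3 with the smallest p of each list, and Gclc, Gclm, Gss, Slc7a11, Mat2a, Bhmt2, Mtr and Gatm where measured (Mat2a had no probe set with a single gene name here). Marker lists used the brightest probe set of each gene, tested or not. Alternatives were median centring, pseudocounts of 1.31 and 21.0, all probe sets or those above the 70th percentile, no trend, array weights, a replicate block, leaving out each pool, and averaging the probe sets of a gene. Recounting members at an unadjusted p under 0.05 was added after seeing the data. The labels name no batch and no animals shared by pools of the same number, so the main fit took no pairs. Same-numbered pools deviated from their group means with correlations across probe sets of 0.13, 0.045 and 0.25. Differently numbered pools had -0.195 to 0.10, so a tie between pools of the same number is not excluded. The replicate block is the alternative that allows for it.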

Additional observations from a re-analysis of the deposited data

How the results depend on the processing

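With limma, 0 of the 10 members and 0 of the 92 other listed genes passed in every alternative run, the replicate block included. The members at an unadjusted p under 0.05 numbered 3 or 4 in each, always including Mat1a, Cbs and Cth, and over all alternatives the adjusted p of these ran from 0.174 to 0.652, 0.347 to 0.866 and 0.131 to 0.812. The fourth was Gamt with median centring or without knockout pool 1, and Csad with array weights or without wild-type pool 3. Members lower in the knockout numbered 3 to 5. The count of called probe sets, 32, was also 32 with the replicate block, 41 with median centring, 40 with array weights, 28 and 33 with the lower and higher pseudocount, 20 with all probe sets kept, 19 with those above the 70th percentile, 18 without the intensity trend and 18 to 29 with a pool left out (19 without knockout pool 1 or 2, 18 without wild-type pool 2). The cause was not tested. Of 567 refitted values of 38 named genes, 557 kept direction and side of the threshold and 10 reversed, none of them past the threshold. Those were Bhmt with median centring (0.026), Bhmt2 and Mtr with the mean of probe sets (0.024 and 0.036), and, with a pool left out, Cdo1 (-0.17 to 0.044), Pemt (-0.0065 to 0.094), Gss (-0.16 to 0.099), Bhmt2 (-0.15 to 0.023) and Mtr (-0.25 to 0.027). Intensities of Slc7a11, Gadl1, Mthfs, Tyms, Aldh1l2, Folh1 and Slc7a9 were too dim to be tested.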
